A study of Mus musculus with 6 samples.

Results

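Lalba, B4galt1, Slc2a1, Slc2a8, Slc35a2, Ugp2, Galt and Galk1, the genes that make lactose and supply its sugars, were followed in mammary epithelial cells (MECs). They were chosen by gene symbol, and all 8 were found among the 55487 genes of the count table. The libraries came from BALB/c female mice at 10 weeks of age, 3 wild-type and 3 IL-21isoTg, and the labels number the mice from 1 to 3 in each genotype. IL-21isoTg mice carry a transgene for an isoform of interleukin-21 whose expression is limited to T cells, and the wild-type mice carry no transgene. The animals had not been mated, and estrous stage was left to chance. MECs were what remained of collagenase-digested glands after magnetic removal of cells carrying CD45, CD31 or CD140a, so that T cells, the source of the transgene product, were among the cells removed before RNA was extracted. The comparison of the genotypes asks how the mammary epithelium differs in animals whose T cells make the isoform.

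Lactose, the main sugar of milk, is joined from glucose and galactose in the Golgi of luminal cells by lactose synthase. Its catalytic part is the galactosyltransferase encoded by B4galt1, which in most tissues adds galactose to sugar chains of proteins, and its regulatory part is alpha-lactalbumin, the whey protein encoded by Lalba, which turns the enzyme towards free glucose. Glucose enters through transporters such as GLUT1 (Slc2a1) and GLUT8 (Slc2a8), UDP-glucose is made by Ugp2, the enzymes of Galk1 and Galt bring galactose into the UDP-sugar pool, and the carrier encoded by Slc35a2 takes UDP-galactose into the Golgi. Transcription of Lalba, like that of the caseins, is known to follow prolactin and STAT5 signalling in late pregnancy and lactation.

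The total count was between 15902886 and 25719244 per mouse, and 17165 genes, all 8 lactose genes among them, passed the filter on low counts. Levels are read counts scaled to TMM-normalised library size (CPM), for which 3 counts amount to 0.112 to 0.280 CPM. Il21 had 0, 0 and 37 counts in wild-type mice 1, 2 and 3 and 795, 216 and 131 counts in IL-21isoTg mice 1, 2 and 3, so 1 wild-type library also held Il21 reads (log2 fold change 4.98, SE 1.27, edgeR adjusted p = 0.757). Markers of T cells summed to 5.48 to 7.78 CPM in wild-type and 7.78 to 10.1 CPM in IL-21isoTg mice. Luminal markers summed to 6064 to 7907 CPM in wild-type and 5663 to 9462 CPM in IL-21isoTg mice, and all 9 of them and all 10 basal markers passed the filter. Transcripts of 17 salivary gland genes also took 5.26 to 42.4% of the counts, with 23.9, 6.92 and 16.5% in wild-type mice 1 to 3 and 23.5, 5.26 and 42.4% in IL-21isoTg mice 1 to 3. Markers of fibroblasts, which carry CD140a, summed to 1963 to 3448 CPM in wild-type and 4315 to 4970 CPM in IL-21isoTg mice, with no overlap for 4 of 7 genes. Basal markers summed to 2124 to 2492 CPM and 2347 to 3944 CPM, with a log2 fold change above 0 for 9 of 10 genes, a median of 0.60 and an unadjusted p under 0.05 for 4. Markers of endothelium, which carries CD31, summed to 58.2 to 152 CPM and 98.6 to 260 CPM, above 0 for 6 of 6 with a median of 0.96 and an unadjusted p under 0.05 for 3. Adipocyte markers summed to 28.4 to 76.2 CPM and 37.8 to 348 CPM, above 0 for 5 of 5 tested with a median of 1.79 and an unadjusted p under 0.05 for 2. Of all 17165 genes, 8216 had a log2 fold change above 0. The groups did not overlap with IL-21isoTg higher for 5.54% of them, and 3.19% had an unadjusted p under 0.05 with a higher level. The part of the cell types above in the results was not tested. In bulk libraries such as these, a larger share of secretory cells and more RNA per secretory cell cannot be told apart.

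Lalba was far more abundant in every IL-21isoTg mouse than in any wild-type mouse, B4galt1 and Ugp2 were moderately or slightly higher with no overlap of the groups, and the other 5 genes overlapped between the genotypes. No overlap with IL-21isoTg higher was thus seen for 3 of the 8 genes, beside 5.54% of all 17165 genes, and no overlap with IL-21isoTg lower for 0 of 8, beside 6.54%. By edgeR's quasi-likelihood test 0 of 8 genes passed an adjusted p of 0.05 in either direction, and the share of all genes that passed was 0% higher and 0% lower. The unadjusted p was under 0.05 and the level higher in IL-21isoTg mice for 3 of 8, beside 3.19% of all genes, and lower for 0 of 8, beside 2.63%. The median log2 fold change of IL-21isoTg over wild-type was 0.26 over the 8 genes and -0.02 over all genes tested.

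**Figure D1:**
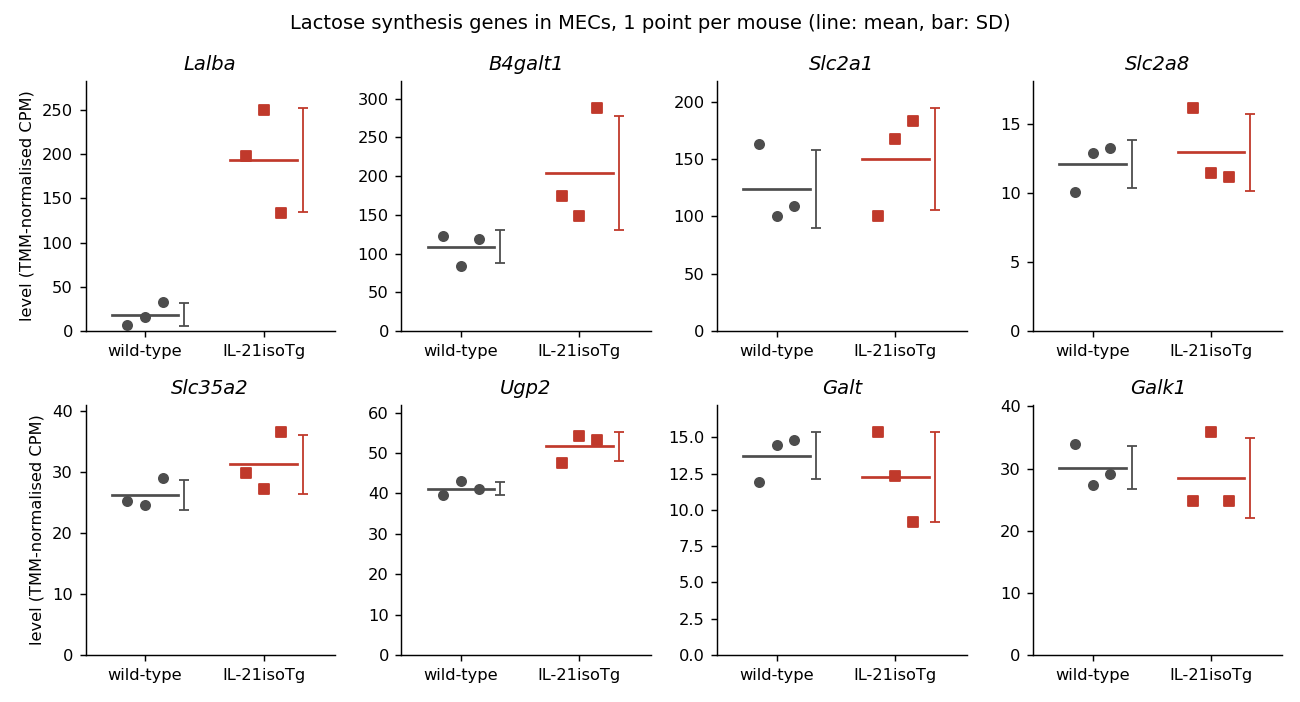
Level of each lactose synthesis gene in TMM-normalised CPM (y axis, from 0, its own scale in each panel) in 3 wild-type (circles) and 3 IL-21isoTg (squares) mice, with the mean as a line and the SD as a bar. The groups do not overlap for Lalba, B4galt1 and Ugp2, with Lalba at 6.99 to 32.5 CPM in wild-type and 133 to 249.8 CPM in IL-21isoTg mice.

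Lalba (ENSMUSG00000022991) lies on the minus strand of chromosome 15 at 98480400 to 98482721 (GRCm38), with 1 annotated transcript of 771 bp and no exon shared with another gene. Its counts were 155, 331 and 722 in wild-type mice 1 to 3 and 4756, 6710 and 1425 in IL-21isoTg mice 1 to 3. On the CPM scale these were 6.99, 15.9 and 32.5 in wild-type and 197.7, 249.8 and 133 in IL-21isoTg mice. Both groups spread widely, by more than 4 times among wild-type mice, yet the lowest IL-21isoTg mouse, mouse 3, stood above the highest wild-type mouse, also mouse 3. The mean was 18.5 ± 12.9 CPM in wild-type and 193 ± 58.6 CPM in IL-21isoTg mice (SD, n = 3 each). The fitted difference was 10.5-fold, a log2 fold change of 3.39 with a standard error (SE) of 0.54 and a 95% interval of 2.15 to 4.63 (edgeR quasi-likelihood test, adjusted p = 0.355). The call depended on the test, since Lalba was past the threshold by DESeq2 (3.40, adjusted p = 3.39e-10) and by edgeR's likelihood ratio test (3.39, adjusted p = 2.27e-06). These tools called 0.415% and 0.303% of the genes they tested as higher. Without wild-type mouse 3, the one with Il21 reads, the log2 fold change was 4.08 (adjusted p = 0.128, with 0.0336% of all genes called higher in that fit), and with the salivary gland level as a covariate it was 3.49 (SE 0.54, adjusted p = 0.33).

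B4galt1 (ENSMUSG00000028413), the catalytic partner, lies on the minus strand of chromosome 4 at 40804602 to 40854005, with 2 transcripts. Its level was 123, 84.5 and 119 CPM in wild-type mice 1 to 3 and 175, 149 and 288 CPM in IL-21isoTg mice 1 to 3. All 3 IL-21isoTg mice stood above all 3 wild-type mice, and IL-21isoTg mouse 3, where Lalba was lowest of its group, had the highest B4galt1 level. The mean was 109 ± 21.2 CPM in wild-type and 204 ± 73.9 CPM in IL-21isoTg mice, and the fitted difference was 1.87-fold (log2 0.90, SE 0.28, 95% interval 0.26 to 1.55, edgeR adjusted p = 0.809). Within each genotype the mice ranked by B4galt1 level as they did by salivary share. The shares were 23.9, 6.92 and 16.5% in wild-type mice 1 to 3 and 23.5, 5.26 and 42.4% in IL-21isoTg mice 1 to 3. IL-21isoTg mouse 3 thus had the highest share. Without that mouse the log2 fold change was 0.58, without mouse 3 of both genotypes it was 0.64, and with the salivary level as a covariate it was 0.73 (SE 0.17, adjusted p = 0.65). What part salivary transcripts have in the B4galt1 level was not tested.

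The stretches before the starts of these genes are shown because Lalba and B4galt1 encode the 2 parts of one enzyme but have unlike upstream sequence, and Ugp2 is shown as the third gene without overlap. They are the bases of RefSeq's promoter windows (GRCm38.p6), each the 250 bases before the start that RefSeq gives, that also lie before the gene as annotated above, all on the minus strand and written 5′ to 3′: chr15:98482722-98482933 for Lalba, chr4:40854006-40854234 for B4galt1 and chr11:21371268-21371517 for the upper of the windows of Ugp2. Capitals mark matches, on either strand, to the letters TTCNNNGAA, a pattern known from STAT binding, TATAAA, the TATA box, or GGGCGG, a pattern known from SP1 binding.
Lalba: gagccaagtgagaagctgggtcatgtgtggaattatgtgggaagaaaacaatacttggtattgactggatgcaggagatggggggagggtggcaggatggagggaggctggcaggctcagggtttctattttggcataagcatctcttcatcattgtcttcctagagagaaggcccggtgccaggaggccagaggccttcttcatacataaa
B4galt1: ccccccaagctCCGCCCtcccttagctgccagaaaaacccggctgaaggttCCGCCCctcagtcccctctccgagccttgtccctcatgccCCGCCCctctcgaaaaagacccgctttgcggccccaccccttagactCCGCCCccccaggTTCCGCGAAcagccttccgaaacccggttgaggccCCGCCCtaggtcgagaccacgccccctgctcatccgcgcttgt
Ugp2: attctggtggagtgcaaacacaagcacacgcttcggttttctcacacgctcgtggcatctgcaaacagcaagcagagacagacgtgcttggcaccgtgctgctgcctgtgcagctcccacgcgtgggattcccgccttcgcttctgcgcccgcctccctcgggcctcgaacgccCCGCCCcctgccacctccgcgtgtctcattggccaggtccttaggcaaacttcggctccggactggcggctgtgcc
Motifs and GC content were read over the whole RefSeq windows, which for several of the genes, Lalba and B4galt1 among them, reach into the gene as annotated above. Lalba held none of the 3 motifs in its window and had a GC content of 50.8%, near the median of 52.4% over all windows. B4galt1 had 66.4% GC, 5 matches to GGGCGG and 1 match to TTCNNNGAA, reading TTCCGCGAA from 99 bases before the RefSeq start. Among all 32851 windows, 7.02% held TTCNNNGAA, 12.4% TATAAA and 32.7% GGGCGG. Of the 10 windows of the 8 genes, no other held TTCNNNGAA and none held TATAAA. There were 2 matches to GGGCGG in the window of Slc2a1, 3 in that of Galk1, 2 in the first window of Ugp2 and 1 in the one printed, 2 in the first window of Galt and none in the second, and none in those of Slc2a8 and Slc35a2. A match gives the letters only, and its absence says nothing of a factor's binding elsewhere.

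Of the transporters that bring glucose into the cell and UDP-galactose into the Golgi, none separated the genotypes. Slc2a1 (ENSMUSG00000028645, chromosome 4, 119108711 to 119137983, plus strand) encodes GLUT1, the main glucose carrier of the mammary epithelium. It was at 163, 101 and 109 CPM in wild-type mice 1 to 3 and at 99.9, 168 and 183 CPM in IL-21isoTg mice 1 to 3, so that the highest wild-type mouse stood above the lowest IL-21isoTg mouse. Its log2 fold change was 0.27 with a 95% interval of -0.37 to 0.92 (edgeR adjusted p = 0.871), and without mouse 3 of both genotypes it was 0.02. Slc2a1 shares 105 bp of exon with the antisense gene Gm12868, which had 314 to 451 counts in wild-type and 325 to 683 in IL-21isoTg mice. Whether strand was used in the counting is not given in the sources used here.

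Slc2a8 (ENSMUSG00000026791, chromosome 2, 32972990 to 32982083, minus strand) encodes GLUT8, a transporter found on inner membranes. It was at 10.1, 12.9 and 13.3 CPM in wild-type and at 16.2, 11.5 and 11.2 CPM in IL-21isoTg mice, with only IL-21isoTg mouse 1 outside the wild-type range. The log2 fold change was 0.10 (SE 0.23, 95% interval -0.44 to 0.64, edgeR adjusted p = 0.95). Slc35a2 (ENSMUSG00000031156, chromosome X, 7884028 to 7894492, plus strand), the Golgi UDP-galactose carrier, was at 25.1, 24.5 and 28.9 CPM in wild-type and at 29.7, 27.2 and 36.6 CPM in IL-21isoTg mice. IL-21isoTg mouse 2 lay within the wild-type range and the other two above it, with a log2 fold change of 0.25 (SE 0.18, 95% interval -0.16 to 0.66, edgeR adjusted p = 0.827). These intervals leave room for a difference of up to 1.89-fold for Slc2a1, 1.55-fold for Slc2a8 and 1.58-fold for Slc35a2.

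Among the genes of UDP-sugar supply, Ugp2 stood apart from Galt and Galk1. Ugp2 (ENSMUSG00000001891, chromosome 11, 21321138 to 21371201, minus strand), which makes UDP-glucose from glucose 1-phosphate, was at 39.6, 43.0 and 41.0 CPM in wild-type and at 47.5, 54.3 and 53.3 CPM in IL-21isoTg mice. The 3 wild-type mice lay within a few CPM of each other and all 3 IL-21isoTg mice above them. The difference was small next to that of Lalba, 1.25-fold (log2 0.33, SE 0.14, 95% interval 0.01 to 0.65, edgeR adjusted p = 0.809). Ugp2 shares 78 bp of exon with Gm12043, which had 5 to 29 counts per mouse.

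Galt (ENSMUSG00000036073, chromosome 4, 41755228 to 41758695, plus strand) exchanges galactose 1-phosphate into UDP-galactose. It was at 11.9, 14.5 and 14.8 CPM in wild-type and at 15.4, 12.3 and 9.14 CPM in IL-21isoTg mice, which lay on both sides of the wild-type range. The log2 fold change was -0.16 (SE 0.24, 95% interval -0.71 to 0.40, edgeR adjusted p = 0.921), and it was 0.02 without IL-21isoTg mouse 3. Galk1 (ENSMUSG00000020766, chromosome 11, 116008457 to 116012719, minus strand), the galactokinase, was at 34.0, 27.3 and 29.1 CPM in wild-type and at 24.8, 36.0 and 24.7 CPM in IL-21isoTg mice. Its log2 fold change was -0.08 (SE 0.20, 95% interval -0.55 to 0.39, edgeR adjusted p = 0.954), and its sign turned without wild-type mouse 1 or without IL-21isoTg mouse 1 or mouse 3.

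**Figure D2:**
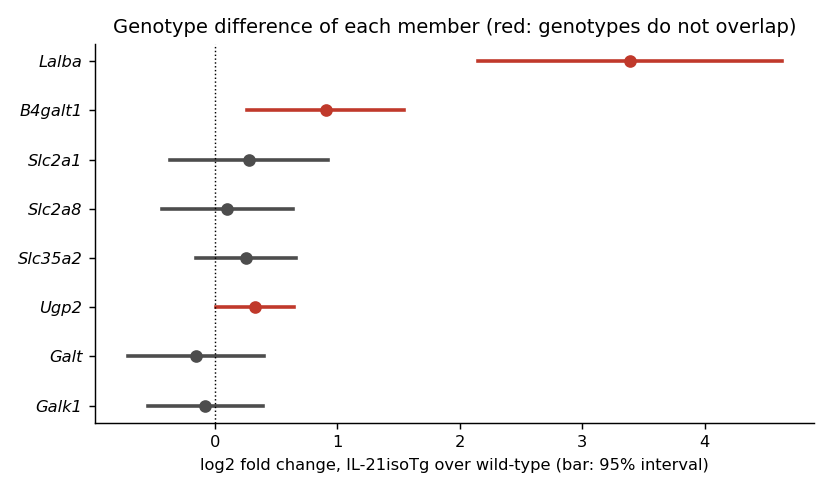
Log2 fold change of IL-21isoTg over wild-type mice (x axis) for each of the 8 genes, with points for edgeR's estimate and bars for its 95% interval, and a line at 0. The intervals of Lalba (2.15 to 4.63), B4galt1 (0.26 to 1.55) and Ugp2 (0.01 to 0.65) lie above 0, and those of the other 5 genes include it.

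Levels of different genes were set side by side as CPM per kb of annotated exon. The length merges the exons of all annotated transcripts, 12 for Slc35a2, 10 for Galt, 8 for Slc2a8, and 1 each for Lalba and Galk1. A longer merged length lowers the value, so the order of genes depends in part on annotation. In wild-type mice Slc2a1 had the highest mean (35.4 ± 9.70 CPM per kb, SD, n = 3), before B4galt1 (25.7 ± 5.01), Lalba (23.9 ± 16.8) and Galk1 (21.4 ± 2.46). Each of these overlapped its neighbours in the order. Ugp2 (13.4 ± 0.550) lay below all of them apart from Lalba in wild-type mouse 1, at 9.07 CPM per kb. Galt (5.56 ± 0.647) and Slc35a2 (5.53 ± 0.511) did not overlap Ugp2 but overlapped each other, and Slc2a8 (3.77 ± 0.542) was below both in every mouse.

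In IL-21isoTg mice Lalba was first by a wide margin, at 251 ± 76.0 CPM per kb, and its lowest mouse (172) stood above the highest B4galt1 value (68.0). B4galt1 (48.2 ± 17.5) and Slc2a1 (42.9 ± 12.6) overlapped, as did Galk1 (20.3 ± 4.60) and Ugp2 (16.8 ± 1.19), and as did Slc35a2 (6.59 ± 1.02), Galt (4.97 ± 1.26) and Slc2a8 (4.03 ± 0.873) each with the next. Ranked per kb among 17145 tested genes with a length, Lalba held places 4449, 1828 and 799 in wild-type mice 1 to 3 and places 161, 133 and 227 in IL-21isoTg mice 1 to 3. B4galt1 held places 1312, 1893 and 1286 and then 879, 1135 and 532.

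**Figure D3:**
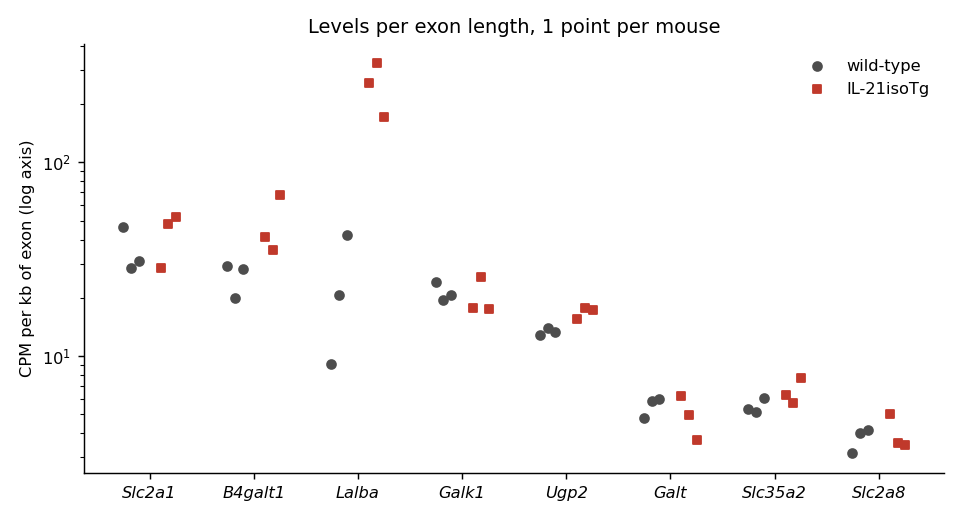
Level of each of the 8 genes in CPM per kb of exon (log axis), 1 point per mouse, wild-type and IL-21isoTg. Lalba passes from among the other genes (9.07 to 42.1 CPM per kb) in wild-type mice to above all of them (172 to 324 CPM per kb) in IL-21isoTg mice.

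The ratio of Lalba to B4galt1 transcripts was read from counts within a library, which no scaling can alter. The mix of cells can alter it, since B4galt1 is not limited to cells that make lactose. What part that mix has in the ratio was not tested, and transcripts do not give the balance of the proteins. Per 1000 B4galt1 counts there were 56.7, 188 and 273 Lalba counts in wild-type mice 1 to 3 and 1130.5, 1677.5 and 461 in IL-21isoTg mice 1 to 3. Every IL-21isoTg mouse was above every wild-type mouse, with IL-21isoTg mouse 3 the nearest to them. The difference in the mean log2 ratio was 2.74 (exact two-sided permutation test, p = 0.1, the smallest that 3 mice against 3 can give), from 7.16 ± 1.18 in wild-type to 9.90 ± 0.95 in IL-21isoTg mice. Leaving out each mouse in turn gave 2.08 to 3.27.

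Set against the summed counts of the caseins, the major proteins of milk, the genotypes overlapped, though the sum was made up of unlike parts. Per 1000 counts of the 5 casein genes there were 15.9, 33.7 and 20.2 Lalba counts in wild-type and 11.3, 17.4 and 17.1 in IL-21isoTg mice. The groups overlapped, and the mean log2 ratio differed by -0.56 on the log2 scale, IL-21isoTg minus wild-type (exact two-sided permutation test, p = 0.3). With Wap and Glycam1 added to the caseins the difference was -0.57 (exact p = 0.3). The mix within the casein sum differed between mice. Csn3 had 7621, 8915 and 8806 counts in wild-type and 35085, 61486 and 10762 in IL-21isoTg mice. Csn2 had 321, 209 and 11565 counts and then 172573, 142771 and 29866. Csn3 was the largest part of the sum in wild-type mice 1 and 2, and Csn2 in wild-type mouse 3 and every IL-21isoTg mouse. Per Csn3 count every IL-21isoTg mouse held more Lalba than any wild-type mouse, and per Csn2 count every one held less. By log2 fold change Lalba (3.39) stood above Csn3 (2.02) and below Csn1s1 (4.08), Csn1s2b (4.08), Csn2 (4.81) and Csn1s2a (4.95). The overlap thus holds for the sum and does not show that Lalba kept step with each casein.

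**Figure D4:**
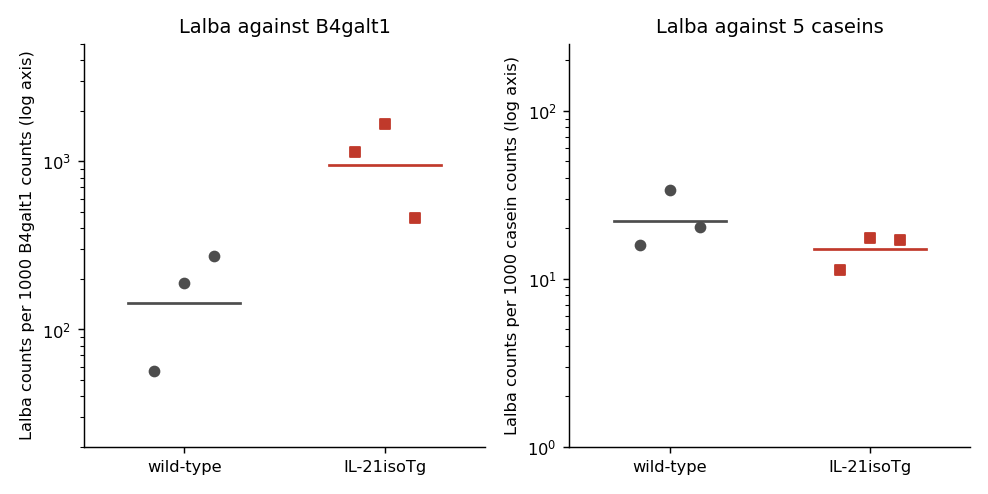
Lalba counts per 1000 B4galt1 counts and per 1000 casein counts (log axes), 1 point per mouse in 3 wild-type and 3 IL-21isoTg mice. Against B4galt1 the groups separate (56.7 to 273 and 461 to 1677.5), and against the summed caseins they overlap (15.9 to 33.7 and 11.3 to 17.4).

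The other milk protein genes, secretory products of the same luminal cells, were higher in IL-21isoTg mice in 7 of 7 cases. All 7 had no overlap, beside 5.54% of all genes, and an unadjusted p under 0.05, beside 3.19%. Their median log2 fold change was 4.08, and 0 of 7 passed the adjusted threshold, beside 0% of all genes. The smallest p belonged to Csn1s2b, a minor casein (log2 fold change 4.08, SE 0.45, edgeR adjusted p = 0.126), Glycam1, a mucin-like milk protein (3.96, SE 0.51, adjusted p = 0.168), and Csn3, the kappa-casein that coats micelles (2.02, SE 0.33, adjusted p = 0.355). Summed, the 7 genes were at 507 to 1701 CPM in wild-type and 8685 to 20168 CPM in IL-21isoTg mice. The highest wild-type sum was that of mouse 3, the wild-type library with Il21 reads, where Csn2, the beta-casein, was at 520 CPM beside 14.5 and 10.0 CPM in wild-type mice 1 and 2. Csn1s2a was at 417 CPM there beside 3.34 and 5.53 CPM, and Wap, the whey acidic protein, at 27.5 CPM beside 1 count in each of the other two. Lalba, too, was highest of the wild-type mice in mouse 3, as were Csn1s1 and Csn1s2b. Csn3 (344, 428 and 396 CPM in wild-type mice 1 to 3) and Glycam1 (91.2, 34.4 and 67.5 CPM) were not. Whether Il21 reads and milk protein genes go together was not tested. Csn1s1, Csn2, Csn1s2a and Wap were named after their values were seen. That milk protein genes differ between the genotypes was known when the list was drawn up.

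Of 10 genes of the prolactin and STAT5 pathway, 2 had an unadjusted p under 0.05 with higher levels in IL-21isoTg mice and 0 with lower. The shares over all genes were 3.19% and 2.63%. The median log2 fold change of the 10 was 0.13. Elf5, a transcription factor of secretory luminal cells, was at 95.8, 128 and 131 CPM in wild-type and 231, 201 and 142 CPM in IL-21isoTg mice (log2 fold change 0.70, SE 0.22, edgeR adjusted p = 0.809), without overlap. Cish and Socs2, feedback inhibitors induced by STAT5, had log2 fold changes of 0.66 (SE 0.26) and 0.99 (SE 0.49), both with an edgeR adjusted p of 0.809. Their groups overlapped.

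The nearest enzymes and carriers showed few differences. Of 12 galactose and UDP-sugar enzymes, 5 had a log2 fold change above 0 and 7 below, with a median of -0.09. An unadjusted p under 0.05 with a higher level was held by 1 enzyme, beside 3.19% of all genes. It was Hk2, a hexokinase, at 42.1, 34.7 and 44.8 CPM in wild-type and 48.9, 67.4 and 103 CPM in IL-21isoTg mice (log2 fold change 0.85, SE 0.27, edgeR adjusted p = 0.809).

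Among the 6 other members of the B4galt family the median log2 fold change was 0.21, and B4galt5, which makes lactosylceramide, had an unadjusted p under 0.05. It was at 9.97, 6.10 and 8.68 CPM in wild-type and 11.2, 10.9 and 18.8 CPM in IL-21isoTg mice (log2 fold change 0.72, SE 0.30, edgeR adjusted p = 0.809). B4galt6 (0.80, SE 0.47, adjusted p = 0.809) and B4galt3 (-0.24, SE 0.16, adjusted p = 0.827) overlapped between the genotypes. Of 9 other nucleotide-sugar transporters none had an unadjusted p under 0.05, and the median was -0.02. Their smallest p belonged to Slc35b1 (log2 fold change 0.38), Slc35d1 (-0.31) and Slc35a4 (-0.09), with edgeR adjusted p of 0.809 to 0.934.

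The other hexose transporters were 10 of 11 past the filter, all 10 with a log2 fold change above 0, beside 8216 of all 17165 genes. Their median was 0.28, and the lowest, that of Slc2a4, was 0.003. An unadjusted p under 0.05 with a higher level was held by 1, beside 3.19% of all genes. Slc2a9, a urate and hexose carrier, was at 4.65, 2.07 and 4.18 CPM in wild-type and 16.0, 15.3 and 4.66 CPM in IL-21isoTg mice, so that IL-21isoTg mouse 3 barely cleared wild-type mouse 1 (log2 fold change 1.73, SE 0.50, edgeR adjusted p = 0.809). Slc2a13, the proton myo-inositol carrier, had a log2 fold change of 0.88 with overlap, and Slc50a1, a sugar efflux carrier of the Golgi, one of 0.27 without overlap (edgeR adjusted p = 0.809 for both).

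Lactose synthase needs manganese and releases UDP, which Golgi nucleotidases clear. Of 9 genes that handle these in the Golgi or bring manganese into the cell, 8 passed the filter, 6 of them with a log2 fold change above 0, and the median was 0.16. Slc39a8, which encodes the manganese and zinc importer ZIP8, was at 4.19, 5.62 and 2.61 CPM in wild-type mice 1 to 3 and 51.4, 25.4 and 12.6 CPM in IL-21isoTg mice 1 to 3, every one above the wild-type range. Its log2 fold change was 2.85 (SE 0.53, edgeR adjusted p = 0.418). Its relative Slc39a14, which encodes ZIP14, had one of 0.61 (SE 0.24, adjusted p = 0.809), and Atp2c2, a secretory pathway calcium and manganese pump, one of 0.94 (SE 0.47, adjusted p = 0.809), both with overlap. Tmem165, which keeps manganese in the Golgi, had non-overlapping groups that differed by 0.16 (SE 0.15, adjusted p = 0.861) and was named after its values were seen.

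Lalba descends from the lysozyme family, of which 2 of 7 listed genes passed the filter. Lyz2 of macrophages (log2 fold change -0.23, SE 0.39, edgeR adjusted p = 0.928) and Lyzl4 (-0.34, SE 0.48, adjusted p = 0.913) both overlapped between the genotypes at 1.49 to 5.53 CPM.

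**Figure D5:**
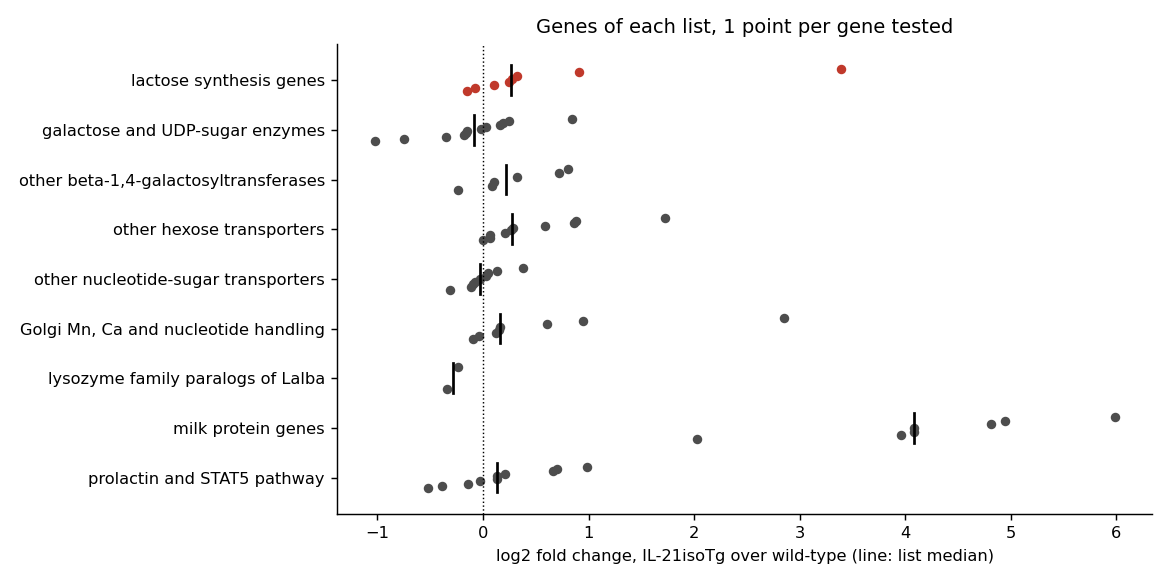
Log2 fold change of IL-21isoTg over wild-type mice (x axis) for every tested gene of the lactose genes and of each pathway list (rows), 1 point per gene, with the median of each list marked. The milk protein genes have a median of 4.08, and the medians of the other lists lie between -0.29 and 0.28.

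The genes whose levels over the 6 mice were most like those of Lalba, by the root mean square (RMS) difference of mean-centred log2 CPM, were Rgs8 (0.30), Csn1s2b (0.33), 1700012B07Rik (0.42), Gm11683 (0.44) and Duox1 (0.46). Rgs8, a regulator of G-protein signalling, had 1, 4 and 10 counts in wild-type and 115, 79 and 24 in IL-21isoTg mice. 1700012B07Rik had 0 to 4 counts and Gm11683 0 to 2 counts in wild-type mice, so their likeness rests on few reads. Duox1, a hydrogen peroxide-producing oxidase, had 52, 82 and 174 counts in wild-type and 1144, 1134 and 180 in IL-21isoTg mice.

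Most like B4galt1 were Mt1 (RMS 0.09), Gm20735 (0.11), 4921501I09Rik (0.11), B4galt5 (0.11) and Tmem144 (0.14). Mt1 encodes a metallothionein, which binds zinc and copper, and had 6302 to 11114 counts in wild-type and 11100 to 15617 in IL-21isoTg mice. No gene was on both lists of 5. This follows from the measure, which includes the size of the genotype difference, far larger for Lalba than for B4galt1. These orders are descriptions over 6 mice and were made with the genotypes in view.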

How the data were processed

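Poly(A)-selected MEC libraries, made with a directional kit from 3 mice of each genotype, were sequenced as paired reads, and the submitters' processing notes name FastQC 0.11.7, Trimmomatic 0.38, HISAT2 2.1.0, SAMtools 1.9, featureCounts 1.6.3, DESeq2 1.24.0 and the mouse build mm10. Whether featureCounts used strand is not given in the sources used here. The authors deposited a count of reads per gene and mouse, without normalization. Normalized counts and the authors' own comparison (fold changes, p-values) were also deposited and were not used, apart from gene positions.

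From the counts, genes were filtered with filterByExpr (minimum count 10, minimum total 15), scaled by TMM and compared with the quasi-likelihood test of edgeR 4.0.16 (limma 3.58.1, R 4.3.3, robust, genotype only), with Benjamini-Hochberg adjustment over 17165 genes and calls at 0.05. DESeq2 1.42.0, limma-voom, the likelihood ratio test, other scalings and filters, the replicate block, the salivary level and leave-one-out fits were alternatives, and leaving out mouse 3 of both genotypes was chosen after seeing the data. The SE was the log2 fold change divided by the root of F. Ratios were compared with exact two-sided permutation tests. Exon lengths came from GENCODE M21 (GRCm38), which gives the start and end of the deposited table for 31020 of 31286 shared identifiers, and promoter sequences from RefSeq (GRCm38.p6), with a match for all 8 genes. Plots were made with Python 3.11.15 and matplotlib 3.10.9.

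The members and lists were chosen with earlier results of these data known. Named were the 8 genes, Il21, the 3 genes with the smallest unadjusted p in each list plus any with an adjusted p under 0.05, and the 5 genes most like Lalba and like B4galt1 (log2 CPM with a prior count of 2). On simulated counts with 200 of 16804 genes changed by a log2 fold of 3, the test recovered 97% with 8.06% false calls, above the 0.05 set. Each simulated gene varied on its own, without the variation in salivary share that the real libraries have in common. The 97% is thus not the power of the test on these data, where it called 0 genes. Total counts were 15902886 to 25719244, and the floor of 3 counts covers counting error only. No sample was left out. Some results that this rule would name are not reported here.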

Additional observations from a re-analysis of the deposited data

How the results depend on the processing

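Over the alternatives, Lalba, B4galt1, Slc2a1, Slc35a2 and Ugp2 kept a log2 fold change above 0. For Lalba it was 3.01 to 4.08 when each mouse was left out in turn (edgeR adjusted p = 0.128 to 0.993) and 3.37 to 4.29 otherwise, the higher value without mouse 3 of both genotypes. Lalba passed the threshold under DESeq2 (3.40) and edgeR's likelihood ratio test (3.39), with 1 of 8 genes called higher under each and 0 under all other settings. The sign turned for Slc2a8, at -0.0927 without IL-21isoTg mouse 1 (leave-one-out range -0.0927 to 0.201), for Galt, at 0.0207 without IL-21isoTg mouse 3 (range -0.349 to 0.0207) and 0.0707 without mouse 3 of both genotypes, and for Galk1, at 0.0277 without wild-type mouse 1, 0.0162 without IL-21isoTg mouse 1 and 0.0169 without IL-21isoTg mouse 3 (range -0.283 to 0.0277). The cause was not tested. B4galt1 ranged from 0.58 to 1.09 and Slc2a1 from 0.11 to 0.53 when a mouse was left out. Lalba relative to B4galt1 ranged from 2.08 to 3.27 and Lalba relative to the caseins from -0.80 to -0.26. An unadjusted p under 0.05 with a higher level was held by 2 of 8 genes in every leave-one-out fit, beside 1.88 to 5.12% of all genes, and by 1 of 8 without mouse 3 of both genotypes, beside 2.26%. Over all genes, 66 were called higher and 10 lower by DESeq2, 52 and 13 by the likelihood ratio test, 14 and 0 without a filter, 6 and 0 without wild-type mouse 3, 6 and 0 without mouse 3 of both genotypes, and 0 and 1 with the salivary covariate. Scaling moved the median log2 fold change of all genes by less than 0.04. The labels do not say whether mice with the same number were paired. Deviations of mice 1, 2 and 3 of the genotypes correlated at -0.22, 0.07 and -0.06. Their salivary shares were 23.9 and 23.5%, 6.92 and 5.26%, and 16.5 and 42.4%. Whether mice with the same number shared a litter or a processing day was not tested. With the replicate block, Lalba was at 3.62 (adjusted p = 0.628) and B4galt1 at 0.87 (adjusted p = 0.992), and 0 of 8 genes were called. The lowest count behind a value of the 8 genes was 98, for Galt in IL-21isoTg mouse 3.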
